A study of Homo sapiens with 10 samples.

Results

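The surface glycoproteins of T cells and thymocytes were followed in MOLT-4, a human leukemia line of immature T-cell origin. The set was chosen by name and held 10 genes, CD1A, CD2, CD4, CD5, CD6, CD7, CD28, CD99, CD44 and CD164. All probe sets that the platform annotation gave to 1 of these symbols were taken, which made 27 of the 22283 probe sets on the array. MOLT-4 cells were treated with MABL, an antibody against CD47, and total RNA was hybridised to Affymetrix Human Genome U133A arrays after 0.5, 1, 3 and 6 h, with 0 h as the study's control. Each time had 2 arrays, 10 in all. The labels give every array, those of 0 h included, the agents MABL at 10 ug/mL and GAM at 50 ug/mL, and do not spell GAM out. No untreated array of a later time was analysed here, so treatment and time in culture cannot be told apart. The cells were 1 established line, and the labels do not say whether the 2 arrays of a time stand for separate cultures. The p-values therefore reflect the spread between arrays, and that spread may be technical.

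Levels are given on a log2 scale, as the square roots of the deposited GCRMA values, a reading of the scale taken from the values themselves. A probe set was tested when at least 2 of the 10 arrays reached log2 5, which 4276 of 22215 non-control probe sets did (19.2%). "Rose" and "fell" stand for a limma adjusted p under 0.05 (Benjamini-Hochberg over the tested probe sets of a comparison). Arrays of the 4 later times had medians over these probe sets that differed from 0 h by -0.13, -0.29, -0.31 and -0.25. The 18S ribosomal RNA control probe sets averaged 9.03, 10.44, 10.68, 11.20 and 11.67 in order of time. Replicate arrays correlated at r = 0.991 to 0.994 over the tested probe sets.

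T-cell surface glycoproteins are the molecules by which the stages of T-cell development are told apart. CD2 and CD28 are receptors for ligands on partner cells, CD4 is the coreceptor for MHC class II, and CD5 and CD6 are scavenger-receptor-like molecules that tune signalling through the T-cell receptor. CD7 appears early in the lineage, and CD1A, a lipid-presenting relative of MHC class I, marks cortical thymocytes. CD44 binds hyaluronan, CD99 is a short O-glycosylated adhesion molecule, and CD164 (endolyn) is a sialomucin found on haematopoietic progenitors and in endosomes and lysosomes. Arrays measure transcripts, and surface protein was not measured.

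The 250 bases before the start of 4 of these genes are shown because the genes differed in course: CD164 fell and came part of the way back, CD1A was lower at 6 h, CD2 stayed below the filter, and CD99 was bright and not called. Promoters in the RefSeq table (GRCh38.p14) matched 6 of the 10 genes. Capitals mark E-boxes, the letters CANNTG, which read the same on both strands; sequences run 5′ to 3′ on the gene's strand.
CD164, chr6:109382468-109382717, minus strand: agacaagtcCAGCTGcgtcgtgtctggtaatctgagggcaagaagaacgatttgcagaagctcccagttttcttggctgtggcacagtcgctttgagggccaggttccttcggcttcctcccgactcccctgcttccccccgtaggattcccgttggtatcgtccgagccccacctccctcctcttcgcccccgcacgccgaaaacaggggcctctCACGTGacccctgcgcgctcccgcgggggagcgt
CD1A, chr1:158248086-158248335, plus strand: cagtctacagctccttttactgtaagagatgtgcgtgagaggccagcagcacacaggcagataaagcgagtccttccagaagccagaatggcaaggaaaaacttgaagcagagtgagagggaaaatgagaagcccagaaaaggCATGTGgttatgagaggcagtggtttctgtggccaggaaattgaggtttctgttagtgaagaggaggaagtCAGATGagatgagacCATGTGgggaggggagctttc
CD2, chr1:116754180-116754429, plus strand: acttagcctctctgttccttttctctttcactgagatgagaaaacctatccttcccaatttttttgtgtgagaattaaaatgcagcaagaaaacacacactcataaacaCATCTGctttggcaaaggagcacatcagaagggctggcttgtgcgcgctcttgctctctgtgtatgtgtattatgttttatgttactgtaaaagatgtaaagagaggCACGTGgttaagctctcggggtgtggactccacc
CD99, chrX:2691045-2691294, plus strand: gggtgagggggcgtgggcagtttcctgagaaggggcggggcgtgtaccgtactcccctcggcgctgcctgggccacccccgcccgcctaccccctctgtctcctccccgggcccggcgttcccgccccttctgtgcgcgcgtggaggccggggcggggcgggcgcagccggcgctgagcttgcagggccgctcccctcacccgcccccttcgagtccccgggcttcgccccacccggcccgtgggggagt
An E-box stood at positions -241 and -34 from the start of CD164 and at -141 and -34 from that of CD2, counted to its first base. The box at -34 was CACGTG in both genes, a form of CANNTG held by 6.34% of 35116 promoters in the same window. CD1A had boxes at -107, -36 and -21, and CD99 had none, while 61.8% of the promoters held at least 1. The CD99 window instead carried 6 matches to the GC box GGGCGG, searched on both strands, a motif found in 42.6% of promoters, and its GC content was 78%. The GC content was 62.8% before CD164, 49.2% before CD1A and 42.8% before CD2, with a median of 58% over all promoters. These matches describe letters only.

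Some of the glycoproteins gave signals above the filter. Of the 27 probe sets, 8 passed the filter, in CD1A, CD5, CD6, CD99 and CD164. The other 19 did not, and CD2, CD4, CD7, CD28 and CD44 had no probe set that passed. CD99 gave the highest signals of the set. Order by signal is not an order of transcript number, because probe sets differ in how brightly they report. The lineage label was checked against marker genes. At 0 h, 7 of 9 T-lineage markers on the array were at log2 5 or above on both arrays, against 0 of 5 B-lineage, 0 of 6 myeloid, 0 of 6 natural killer and 0 of 3 erythroid and platelet markers. The 7 include CD5, whose reading just above log2 5 does not show whether the transcript was present. The 2 T-lineage markers that were lower were the members CD2 and CD7. Of 13 immature thymocyte markers, 6 were that high, CD1A among them and CD4 not. These numbers were the same at each later time.

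**Figure D1:**
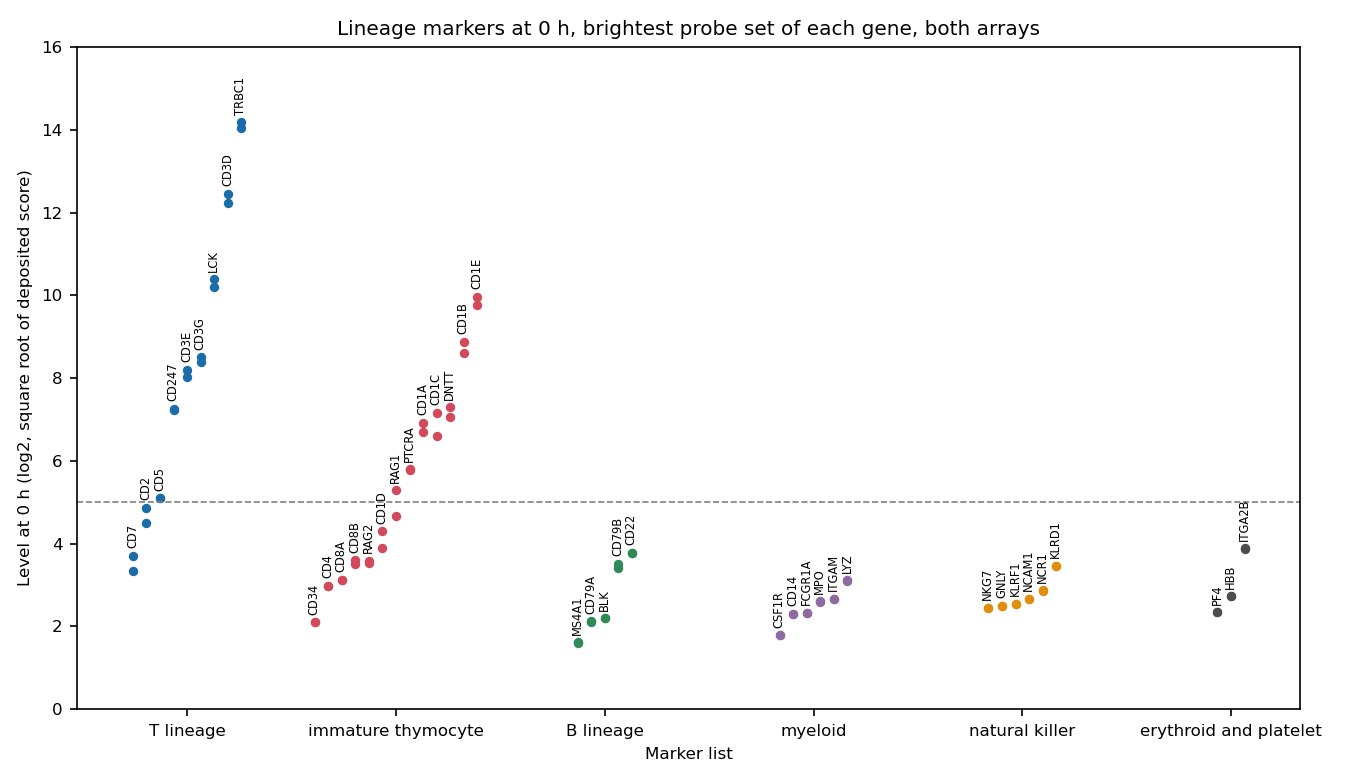
Levels at 0 h of lineage marker genes on the log2 scale, with both arrays shown for the brightest probe set of each gene and the dashed line at log2 5. T-lineage and immature thymocyte markers lie above the line on both arrays in 7 of 9 and 6 of 13 genes, and no marker of the other lineages does.

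Several members gave narrow ranges over the 10 arrays. CD99 201029_s_at read between 10.58 and 10.96 on all of them, and CD5 206485_at between 5.09 and 5.12. CD7 read 3.31 to 3.87, CD28 2.45 to 2.79, and the 2 CD4 probe sets 2.86 to 3.34 and 2.37 to 2.45. CD4, CD7 and CD28 were thus below the filter on every array at every time. A reading below the filter does not show that a transcript was absent. The 8 CD44 probe sets lay between 2.38 and 4.86.

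**Figure D2:**
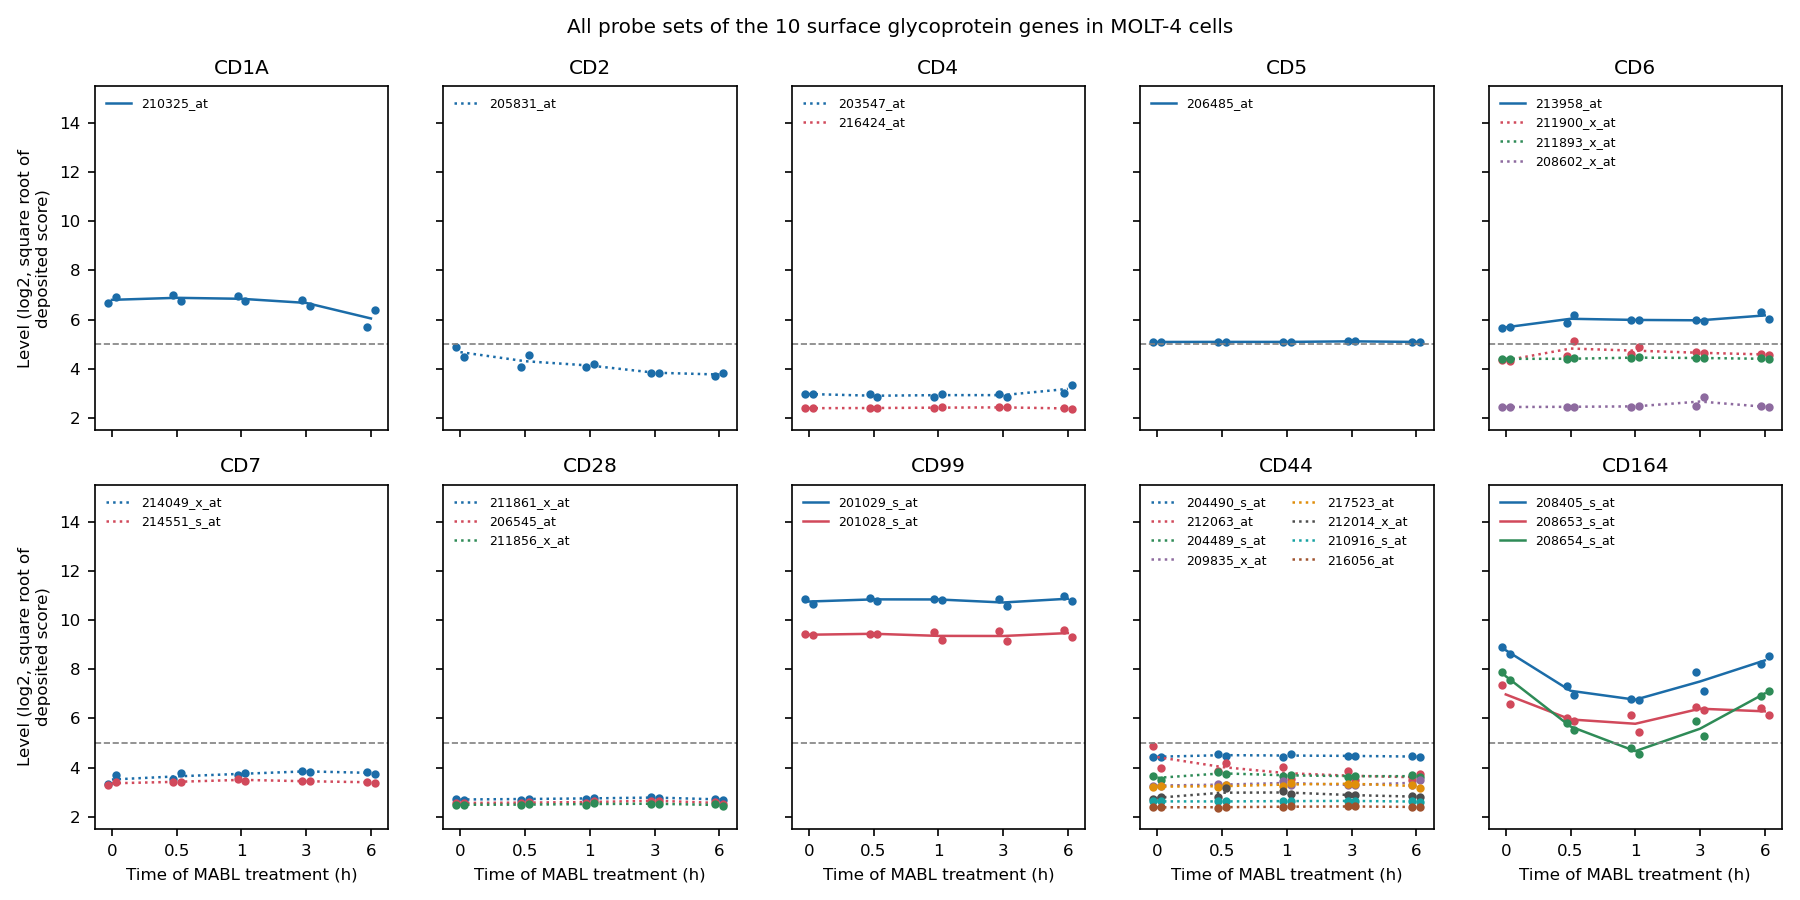
Level (log2) of each probe set of the 10 genes on every array against time (h), 1 panel a gene, with a line through the mean of the 2 arrays; solid lines are tested probe sets, dotted lines are those below the filter, and the dashed grey line is log2 5. The 3 CD164 probe sets dip at 0.5 and 1 h, and CD99 and CD5 move little.

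CD164 had the deepest fall of the members, and its signal had come part of the way back by 6 h. At 0.5 h all 3 CD164 probe sets were lower than at 0 h, and no other of the 8 tested member probe sets was called; 17.0% of all tested probe sets were called then, and 15.1% were called lower. At 1 h the same 3 were lower than at 0 h, where 28.4% of all tested probe sets were called and 24.2% were lower. At 3 h 2 of the 3 were still lower, where 28.9% were called and 26.4% were lower. In bulk RNA of 1 line, a smaller share of cells with the transcript and less of it per cell cannot be told apart.

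The brightest CD164 probe set, 208405_s_at, read 8.92 and 8.62 at 0 h, then 7.31 and 6.93 (0.5 h), 6.79 and 6.73 (1 h), 7.88 and 7.12 (3 h) and 8.20 and 8.52 (6 h). All later arrays lay below both 0 h arrays, and the 1 h arrays were the lowest. Of all tested probe sets, 31.4%, 39.0%, 47.6% and 47.6% had both arrays below both 0 h arrays at 0.5, 1, 3 and 6 h. The log2 change of 208405_s_at from 0 h was -1.65 after 0.5 h (SE 0.252, limma adjusted p = 0.00611), and it was -2.01 after 1 h (adjusted p = 0.00121). At 3 h the change had narrowed to -1.27 (adjusted p = 0.00853). At 6 h the change was -0.41, with a 95% interval of -0.99 to 0.17 and an adjusted p of 0.269. A second CD164 probe set, 208654_s_at, read 7.87 and 7.55 at 0 h, then 5.82 and 5.52 (0.5 h), 4.80 and 4.54 (1 h), 5.88 and 5.28 (3 h) and 6.92 and 7.11 (6 h). It had the deepest fall of any member, -3.05 at 1 h (adjusted p = 0.000559), or -2.71 when values below log2 5 were set to 5. Its changes at 0.5 h and 3 h were -2.04 (adjusted p = 0.00299) and -2.13 (adjusted p = 0.00184). At 6 h it was still lower by -0.70 (adjusted p = 0.0493), a call kept in 7 of 20 alternatives.

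The remaining CD164 probe set, 208653_s_at, gave a shallower course. It read 7.35 and 6.60 at 0 h, then 6.01 and 5.90 (0.5 h), 6.13 and 5.43 (1 h), 6.46 and 6.33 (3 h) and 6.42 and 6.15 (6 h), so its 0 h arrays were further apart than those of the other CD164 probe sets. Its changes of -1.02 at 0.5 h and -1.19 at 1 h were called (adjusted p = 0.0412 and 0.0148), and those of -0.58 at 3 h and -0.69 at 6 h were not (adjusted p = 0.164 and 0.108). The call at 0.5 h held in 8 of 19 alternatives and that at 1 h in 14 of 19. By the submitters' fold rule (above 2 or under 0.5 times the 0 h mean on both arrays), the other 2 CD164 probe sets, 208405_s_at and 208654_s_at, were lower at 0.5 h and at 1 h, and 208654_s_at alone at 3 h. By 6 h no member was lower by that rule. Of all tested probe sets, 5.99%, 11.4%, 6.69% and 4.09% were lower by it at 0.5, 1, 3 and 6 h.

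The return of CD164 was tested between successive times, which do not use the 0 h arrays as their comparison. From 1 h on, 208654_s_at read 0.91 higher at 3 h than at 1 h (adjusted p = 0.0634). The step from there to 6 h was 1.43 (adjusted p = 0.00842). It was not called without the second 6 h array (adjusted p = 0.0583), without the filter (adjusted p = 0.0868) or with these 2 times fitted alone (adjusted p = 0.119). This was the only member call between 6 h and 3 h, where 7.09% of tested probe sets were called. For 208405_s_at the steps were 0.74 (adjusted p = 0.14) and 0.86 (adjusted p = 0.0841), and for 208653_s_at 0.61 (adjusted p = 0.257) and -0.11 (adjusted p = 0.885). No member was called between 1 h and 0.5 h, where 0.0468% of probe sets were, nor between 3 h and 1 h, where 3.77% were. By 6 h, 79.4% of the 1 h fall of 208405_s_at had been regained, 77.1% of that of 208654_s_at and 42.3% of that of 208653_s_at. On all 3 probe sets both 6 h arrays were above both 1 h arrays, for 208653_s_at only just (6.15 against 6.13). How many of all tested probe sets did the same was not counted.

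Over all 5 times, limma's F test called 208405_s_at (F = 22.4, adjusted p = 0.00296) and 208654_s_at (F = 62.1, adjusted p = 0.000626) and no other member, against 39.6% of tested probe sets. The 18S signal averaged higher at each later time than at the one before, and from 0.5 h on single arrays of neighbouring times overlapped. With each array's 18S level as a covariate, 208405_s_at changed by -1.14, -1.41 and -0.49 at 0.5, 1 and 3 h and was not called (adjusted p = 0.127, 0.0559 and 0.653). In that fit 208654_s_at changed by -1.69 at 0.5 h and -1.59 at 3 h, also without a call (adjusted p = 0.0723 and 0.276). The 1 h fall of 208654_s_at was called under all 20 alternatives. Without the first 0 h array, 208405_s_at had an adjusted p of 0.059 at 0.5 h and 0.0683 at 3 h, and without the second 0.5 h array it was 0.0557 at 0.5 h. Because 18S rose with time on these arrays, its part and that of time cannot be told apart.

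**Figure D3:**
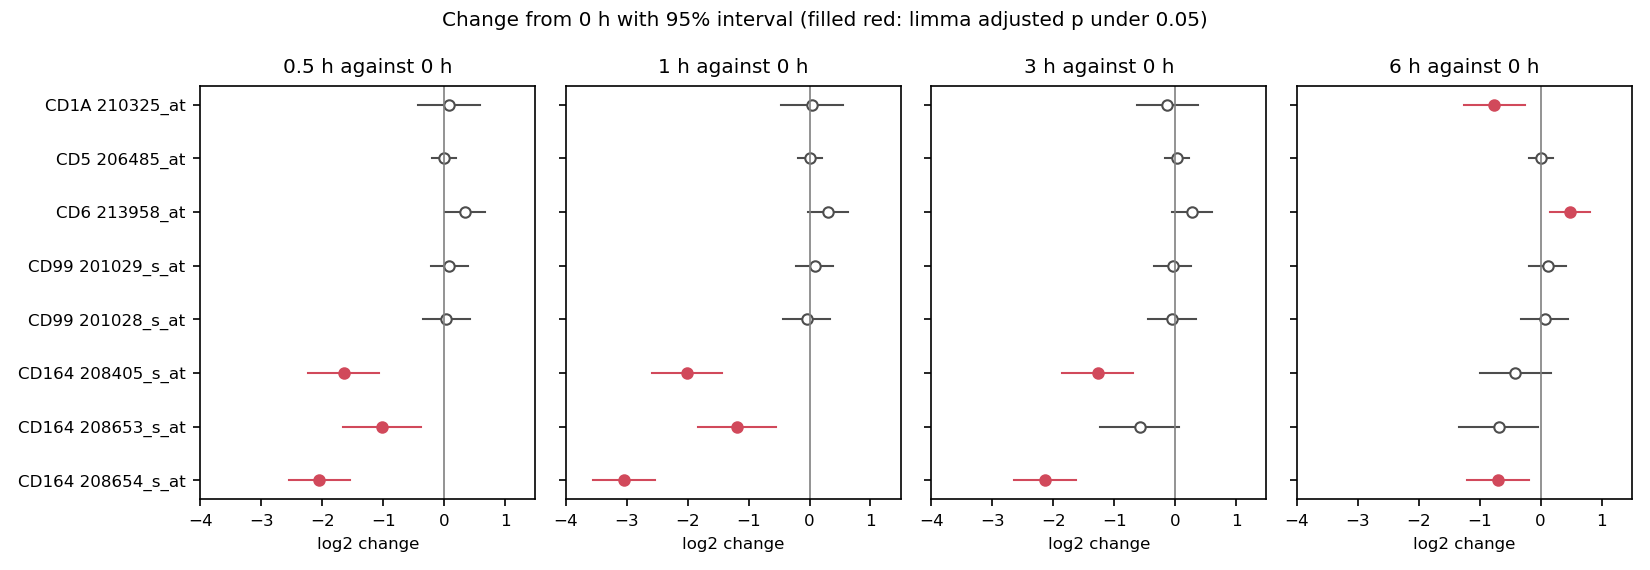
Change from 0 h (log2, later minus 0 h) of the 8 tested member probe sets at 0.5, 1, 3 and 6 h, with 95% intervals from limma. The CD164 changes lie left of 0 at each time, by up to -3.05 at 1 h. Their intervals include 0 for 208653_s_at at 3 h and for 208405_s_at at 6 h. The CD99 and CD5 intervals include 0 throughout.

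CD1A, the cortical thymocyte antigen, was not called up to 3 h and was lower at 6 h. Its probe set 210325_at read 6.70 and 6.92 at 0 h, then 7.02 and 6.76 (0.5 h), 6.96 and 6.74 (1 h), 6.80 and 6.56 (3 h) and 5.72 and 6.38 (6 h). The 6 h arrays were the lowest of the 10 and lay further apart than those of any other time. The change at 6 h was -0.76 (SE 0.22, 95% interval -1.26 to -0.25, limma adjusted p = 0.0378), one of 3 member calls in that comparison, where 25.7% of all tested probe sets were called, 21.6% lower and 4.07% higher. Changes at 0.5, 1 and 3 h were 0.08, 0.04 and -0.12, none of them called. The 6 h call held in 5 of 19 alternatives, and without the first 6 h array the change was -0.42 (adjusted p = 0.184). Of the 13 immature thymocyte markers on the array, 6 were tested, with CD1A among them, and 0, 1, 3 and 2 were called lower at 0.5, 1, 3 and 6 h, where 15.1%, 24.2%, 26.4% and 21.6% of all tested probe sets were. With all arrays set to the same median, the 6 h call of CD1A was lost (adjusted p = 0.0522), as were the 3 h calls of CD1B (adjusted p = 0.407) and CD1E (adjusted p = 0.0718). DNTT, which adds bases at receptor gene junctions, was picked after its values were seen. It changed by -0.64 at 1 h (adjusted p = 0.0328) and -1.03 at 3 h (adjusted p = 0.00606), and was not called at 6 h (-0.25, adjusted p = 0.366). The summed level of the 13 markers, untested ones included, was 69.40 to 69.91 at 0 h and already 67.47 to 68.27 at 0.5 h. It was 67.38 to 67.48 at 1 h, 66.52 to 66.74 at 3 h and 65.94 to 66.22 at 6 h. The largest part of the difference between 6 h and 0 h came from RAG1 (-1.35), followed by CD1A and CD1E. RAG1 was not tested and averaged 4.98 at 0 h, 3.65 at 0.5 h and 3.63 at 6 h. For the 9 T-lineage markers the summed level was 72.87 to 73.44 at 3 h and 73.09 to 73.66 at 6 h, against 73.59 to 74.11 at 0 h. Of the untested markers in that sum, CD2 changed by -0.91 and CD7 by 0.27 at 6 h. None of the 7 tested T-lineage markers was called at any time. The sums were not tested.

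CD6, a receptor for ALCAM, moved a little in the other direction. Its tested probe set 213958_at read 5.67 and 5.71 at 0 h, then 5.87 and 6.21 (0.5 h), 5.99 and 5.99 (1 h), 5.99 and 5.96 (3 h) and 6.32 and 6.02 (6 h). All later arrays lay above both 0 h arrays. Of all tested probe sets, 29.1%, 29.3%, 20.9% and 18.9% had both arrays above both 0 h arrays at 0.5, 1, 3 and 6 h. The change passed the test at 6 h, at 0.48 (SE 0.142, limma adjusted p = 0.0394), and not at 0.5 h (0.35, adjusted p = 0.145), 1 h (0.30, adjusted p = 0.166) or 3 h (0.28, adjusted p = 0.177). The call at 6 h held in 8 of 19 alternatives, and without the first 6 h array its adjusted p was 0.206. With all arrays set to the same median, CD6 was called at 1 h (adjusted p = 0.0183), 3 h (adjusted p = 0.0219) and 6 h (adjusted p = 0.0108). The other CD6 probe sets stayed near or below the threshold and were not tested: 211900_x_at read 4.33 to 5.12, 211893_x_at 4.38 to 4.47 and 208602_x_at 2.45 to 2.85.

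CD5, the inhibitory partner of the T-cell receptor, read nearly the same number on every array. The range of 206485_at over the 10 arrays was 0.0359, with a pooled replicate SD of 0.0095. Only 6 of the 1053 probe sets with a mean between log2 5 and 6 had a range this small (0.57%), and their median range was 0.779. The median replicate SD was 0.0217 for means under 3 and 0.169 for means between 5 and 6. CD5 was not called at any time, and its reading just above log2 5 does not show whether the transcript was present.

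CD99 kept the highest signal of the set. Its probe set 201029_s_at changed by 0.09, 0.08, -0.04 and 0.11 at 0.5, 1, 3 and 6 h, and the 95% intervals of all 4 lay within -0.34 and 0.41. The second CD99 probe set, 201028_s_at, read 9.15 to 9.61 and changed by 0.04, -0.05, -0.05 and 0.07 at these times, with intervals within -0.44 and 0.45. Neither was called. With all arrays set to the same median, 201029_s_at was higher at 1 h by 0.37 (adjusted p = 0.042).

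The receptors below the filter showed no call either when the filter was dropped. CD2 205831_at read 4.87 and 4.49 at 0 h, then 4.06 and 4.57 (0.5 h), 4.08 and 4.20 (1 h), 3.85 and 3.84 (3 h) and 3.73 and 3.81 (6 h). The 1 h, 3 h and 6 h arrays of CD2 lay below both 0 h arrays. Of all tested probe sets, 39.0%, 47.6% and 47.6% did so at these times, and the share among untested ones was not counted. The CD2 changes were -0.54 at 1 h (adjusted p = 0.257 without the filter), -0.83 at 3 h (adjusted p = 0.0789 without the filter) and -0.91 at 6 h (adjusted p = 0.0644 without the filter). Of the CD44 probe sets, 204490_s_at was the brightest on average and read 4.42 to 4.55. CD44 212063_at had the widest range of the 8; it read 4.86 and 3.99 at 0 h and its change at 3 h was -0.76 (adjusted p = 0.252 without the filter). Without the filter, CD164 alone among the 27 member probe sets was called, with 1, 2, 1 and 0 probe sets at 0.5, 1, 3 and 6 h, where 1.38%, 3.92%, 3.06% and 3.04% of all 22215 probe sets were called.

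The members were also set beside all tested features, with no test. The median change of the 8 member probe sets was 0.02, -0.02, -0.09 and -0.21 at 0.5, 1, 3 and 6 h, beside 0.02, -0.03, -0.15 and -0.14 over all tested probe sets. CD164 supplies 3 of the 8, and with 1 probe set a gene the median over the 5 tested genes was 0.08, 0.04, -0.04 and 0.00. Both later arrays lay below both 0 h arrays in 3, 3, 3 and 4 of the 8, where 31.4%, 39.0%, 47.6% and 47.6% of all tested probe sets did. All 8 tested member probe sets reached log2 5 on at least 8 arrays.

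Other surface genes were read from 4 lists, counting each gene by its brightest tested probe set. Of 11 tested T-cell differentiation antigens, none rose and 1, 1, 3 and 1 fell at 0.5, 1, 3 and 6 h. Over all tested probe sets 15.1%, 24.2%, 26.4% and 21.6% fell at these times, and 1.92%, 4.14%, 2.53% and 4.07% rose; the counts of all 4 lists stand beside those shares. TFRC, the transferrin receptor, was the gene called at 0.5 and 1 h. It read 8.54 and 8.70 at 0 h, 7.64 and 7.35 at 1 h, and 8.38 and 8.78 at 6 h, with changes of -1.12 at 1 h (SE 0.203, adjusted p = 0.00468) and -0.04 at 6 h (adjusted p = 0.925). CD1E and CD1B, relatives of CD1A, fell at 3 h by 0.69 and 0.45 on the log2 scale (adjusted p = 0.024 and 0.0271), and CD1E was also lower at 6 h by -0.74 (adjusted p = 0.0203). The second CD1E probe set did not pass the test at 3 h (-0.29, adjusted p = 0.11) or at 6 h (-0.32, adjusted p = 0.0871). The CD1B call was also lost after quantile normalization again (adjusted p = 0.347), without the first 0 h array (adjusted p = 0.162) and without the second 3 h array (adjusted p = 0.148). Of 8 adhesion and homing receptors none rose, none fell at 0.5 or 1 h, and 2 fell at 3 h and at 6 h. ITGAE, the alpha chain of the integrin that binds E-cadherin, changed by -1.11 at 6 h (SE 0.159, adjusted p = 0.00297). CD9, a tetraspanin, changed by -1.02 at 3 h (adjusted p = 0.0207), or by -0.26 without a call when values below log2 5 were set to 5 (adjusted p = 0.268).

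Among tested tetraspanins, GPI-anchored and other leukocyte antigens, SIT1, an adaptor of the T-cell receptor, passed the filter only through its 6 h arrays and is left out of the counts. It read 5.29 and 5.28 at 6 h, against 3.96 and 4.02 at 0 h, a change of 0.29 when values below log2 5 were set to 5. Of the other 11, 0 rose and 1 fell at 1 h, 1 rose and 2 fell at 3 h, and none was called at 0.5 or 6 h. CD83 and CD53 changed by -1.11 and -0.70 at 3 h (adjusted p = 0.00725 and 0.0116). The calls held in 15 of 19 and 14 of 20 alternatives, and that of CD53 was lost with all arrays set to the same median (adjusted p = 0.0644). CD47, the antigen that MABL binds, read 8.60 and 8.33 at 1 h, against 8.98 and 8.94 at 0 h (change -0.49, adjusted p = 0.0263), and its changes at 0.5, 3 and 6 h were not called. The 1 h call held in 12 of 20 alternatives and was lost with all arrays set to the same median (adjusted p = 0.177). A second CD47 probe set, 211075_s_at, was lower at 1, 3 and 6 h by -0.90, -0.97 and -0.80 (adjusted p = 0.00399, 0.00425 and 0.00856). LAT, picked after its values were seen, changed by 0.43 at 3 h (adjusted p = 0.0446).

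Of 11 tested ligands and partners of the members, 1, 2 and 2 fell at 0.5, 1 and 3 h, and 1 rose and 3 fell at 6 h. EZR and MSN, the ezrin and moesin proteins that tie CD44 to the cytoskeleton, changed by -0.96 (SE 0.124, adjusted p = 0.00226) and -0.88 (SE 0.152, adjusted p = 0.00591) at 6 h. The other 3 tested EZR probe sets changed by -0.40, -0.56 and -0.68, of which the last 2 were called (adjusted p = 0.125, 0.0413 and 0.0294). CXCR4, the chemokine receptor with which CD164 associates, read 11.10 and 11.46 at 6 h, against 11.73 and 11.85 at 0 h (change -0.50, adjusted p = 0.0375), and its other 2 probe sets changed by -0.28 and -0.30 without a call. The CXCR4 call held in 8 of 20 alternatives. SDCBP, or syntenin, read 4.60 and 4.89 at 0.5 h, against 5.99 and 5.60 at 0 h, and 6.53 and 6.92 at 6 h; its change was -1.05 at 0.5 h (adjusted p = 0.0128) and 0.93 at 6 h (adjusted p = 0.0146). The lists overlap, CXCR4 standing in 2 of them, and like the members they were drawn up with results of these data known.

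**Figure D4:**
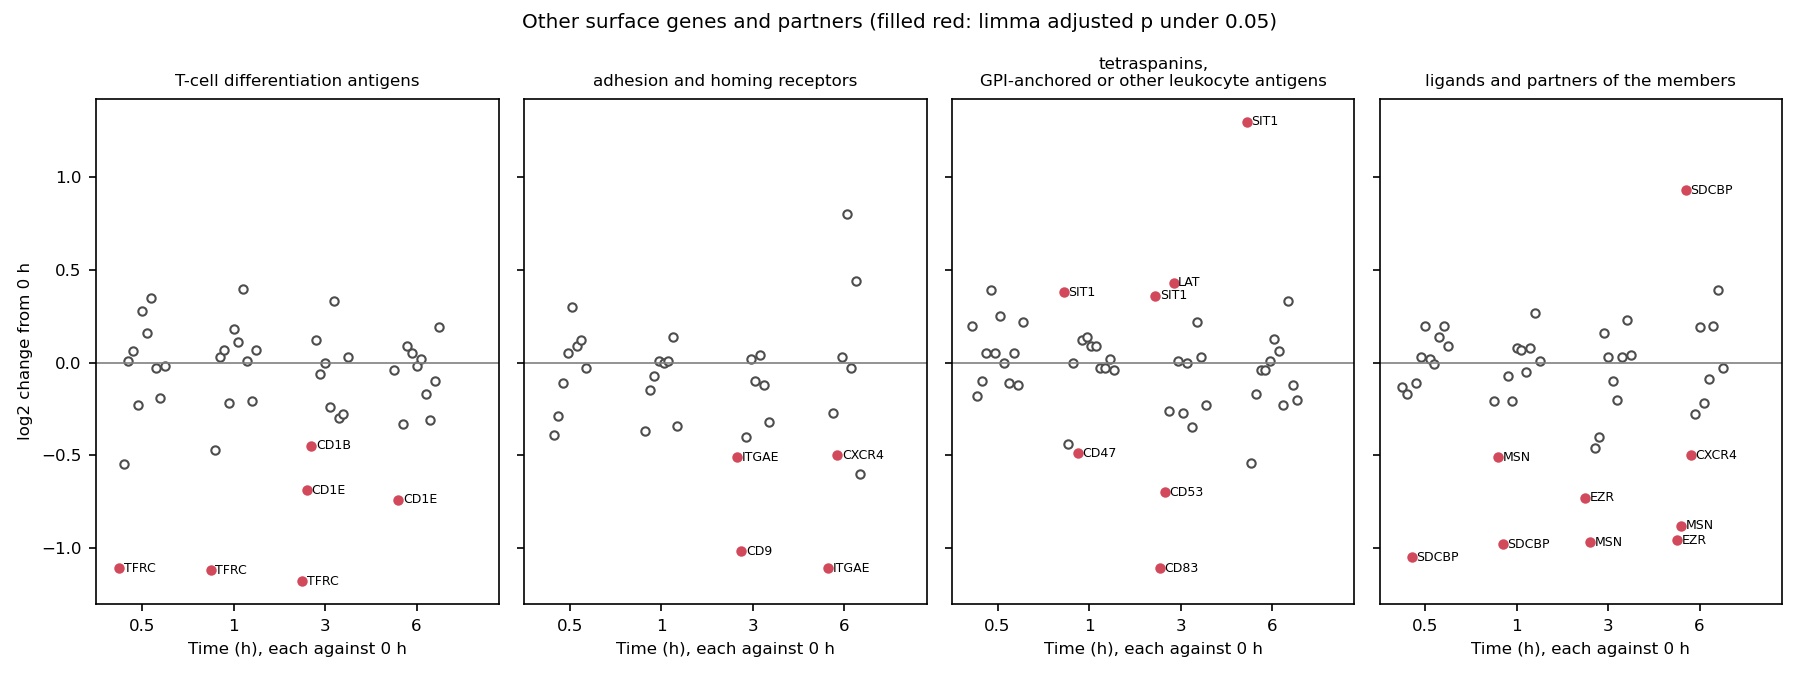
Change from 0 h (log2, later minus 0 h) of each tested gene of 4 lists of surface and partner genes at 0.5, 1, 3 and 6 h, 1 panel a list, with called genes filled in red and named. TFRC lies lowest of the T-cell differentiation antigens at 0.5, 1 and 3 h, and CD83 lowest of the leukocyte antigens at 3 h. SIT1, drawn at 1, 3 and 6 h as called, lay below log2 5 at all times but 6 h.

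The tested probe sets of other genes whose levels ran most like those of CD164 208405_s_at over the 10 arrays were ANP32E (Pearson r = 0.992), PBK (r = 0.990) and OAT (r = 0.990). For CD1A they were SFPQ, SRPRA and SLC39A14 (r = 0.957, 0.956 and 0.955), and for CD6 EIF5A, BIRC5 and CYB5R3 (r = 0.903, 0.901 and 0.890). These were the highest among the tested probe sets of other genes with 1 symbol, which number fewer than the 4276 tested. The 10 arrays share 5 times, and the correlations are a description with no test.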

How the data were processed

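Expression was measured in MOLT-4 cells on 10 Affymetrix U133A arrays, 2 at each of 5 times, with groups taken from the sample titles. The deposited values are scores; the submitters' processing notes name GCRMA as the tool, with its version not given in the sources used here. They ran from 1.25e-05 to 238.1, and their square roots, at most 15.43, were read as log2. Symbols came from the platform annotation, where 19071 probe sets had 1 symbol, 1043 several and 2169 none. The 68 control probe sets were left out. Probe sets with at least 2 of 10 arrays at log2 5 or higher were fitted with limma 3.58.1 (lmFit and eBayes, R 4.3.3), with time as the factor over all 10 arrays (5 residual degrees of freedom), and p-values were adjusted by the Benjamini-Hochberg method within each comparison. Precision is limited by how many arrays there are. The fit was tested on simulated data.

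Named genes were all probe sets of the members, and from each list up to 4 called genes with the largest absolute moderated t. Also named were CD47 and, for the 3 members with the largest F, the 3 genes most correlated with each. The members, the lists and the tests were chosen with earlier results of these data known. Alternatives were other scalings, filters, transformations, a replicate block, the 2 times compared alone, 18S as a covariate and leaving out each array. Deviations of arrays with the same number correlated weakly over the tested probe sets (r = -0.231 to 0.147), and the main fit used no pairing. That does not exclude that the numbers mark shared cultures or batches.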

Additional observations from a re-analysis of the deposited data

How the results depend on the processing

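Member probe sets called numbered 3, 3, 2 and 3 of 8 at 0.5, 1, 3 and 6 h against 0 h. Of all tested probe sets, 17.0%, 28.4%, 28.9% and 25.7% were called at these times. The member calls at 0.5, 1 and 3 h were all in 1 gene, CD164. With the 18S level as a covariate the member probe sets called numbered 0, 1, 0 and 0, with 1 called for 3 h against 1 h and 2 for 6 h against 3 h. Over all probe sets, that covariate left 9, 87, 0 and 6 called at 0.5, 1, 3 and 6 h and 785 in the F test. It left 1 for 1 h against 0.5 h, 145 for 3 h against 1 h and 364 for 6 h against 3 h. The 18S level rose with time, so 18S and time cannot be told apart.

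With equal array medians 5 member probe sets (in 3 genes) were called at 1 h, 1 at 6 h, 2 for 3 h against 1 h, 3 for 6 h against 3 h and 5 in the F test, and over all probe sets 2223 at 1 h, 401 and 526. Of those 2223, 1389 were higher and 834 lower, against 177 higher and 1036 lower as reported; the split was 987 higher and 760 lower at 3 h (108 and 1128 as reported), 613 and 603 at 6 h (174 and 925) and 295 and 656 at 0.5 h (82 and 646). After quantile normalization again, member probe sets called were 1 at 6 h, 2 for 3 h against 1 h, 3 for 6 h against 3 h and 5 in the F test, and all probe sets 1873 at 1 h, 323 and 521.

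Without the filter 1, 1 and 0 member probe sets were called at 0.5, 3 and 6 h and 0 for 6 h against 3 h; all probe sets numbered 307, 680 and 676 at those times, 5, 21 and 114 between successive times and 834 in the F test. With the filter at log2 7 the member probe sets called were 1 at 6 h, 1 for 3 h against 1 h and 2 for 6 h against 3 h, and all probe sets 475 at 0.5 h, 767 at 1 h, 10 for 1 h against 0.5 h and 279 for 3 h against 1 h, with fewer probe sets tested. On log2 of the deposited values 1 member probe set was called at 6 h, and 1 and 77 of all probe sets for the first and second steps between successive times. Fitting only the 2 times compared, which leaves fewer arrays, gave 1 member probe set at 3 h, 1 at 6 h and 0 for 6 h against 3 h, with 646 of all probe sets at 3 h and 1, 2 and 8 between successive times. The replicate block gave 1 member probe set called for 3 h against 1 h and 1 probe set in all for 1 h against 0.5 h, and moved no other count by more than 1.5 times.

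Leaving out 1 array at a time gave 1 to 3, 2 to 3, 1 to 2 and 0 to 2 member probe sets called at 0.5, 1, 3 and 6 h, 0 to 0, 0 to 2 and 1 to 2 between successive times, and 2 to 3 in the F test. Over all probe sets it gave 128 to 792, 656 to 1203, 429 to 1187 and 426 to 1187 at these times, 1 to 2, 12 to 130 and 142 to 369 between successive times, and 995 to 1713 in the F test. The lone array left at a time was assumed to vary like the others. No tested change of a member turned its direction where it was called. Other causes were not tested.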
